A study of Mus musculus with 16 samples.

Results

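The genes described here are 36 genes of the endoplasmic reticulum (ER) stress response and of the amino acid response, measured in HL-1 cells, an established mouse line with an atrial cardiomyocyte character. They were listed by name, with earlier results of these data known, and fall into 7 sensors and transcription factors, 14 ER chaperones and folding factors, 3 factors of ER-associated degradation and 12 targets of the transcription factor Atf4. A non-control probe was tied to a gene through its RefSeq accession, which named 19096 genes on the array, and the probe with the highest mean signal stood for its gene. Of the 36 genes, 35 had a probe and 34 were well above background on all 16 arrays. Pdia3 had no probe named in this way. Slc7a11, which encodes the light chain of the cystine and glutamate exchanger, stayed below the scanner's call of well above background with all 3 probes on all 16 arrays, so it has no level here.

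When proteins misfold in the ER lumen, 3 sensors in its membrane are known to respond. Ern1 splices the mRNA of Xbp1, Atf6 is cut to release a transcription factor, and Eif2ak3 phosphorylates the initiation factor eIF2 alpha. Spliced Xbp1 and cleaved Atf6 raise chaperones and degradation factors, often through an ER stress response element in the promoter. Phosphorylated eIF2 alpha lowers general translation but favours translation of Atf4, which binds C/EBP-ATF response elements of genes for amino acid supply. Kinases other than Eif2ak3, which sense amino acid shortage among other conditions, feed into the same Atf4 branch, so its targets can move without the chaperones. In cardiomyocytes both branches are studied for their part in the secretory load and in protection from stress.

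The 16 arrays were single-colour Agilent arrays, 4 for each of 4 labels: Vehicle (PBS), Dex (100 nM dexamethasone, a synthetic glucocorticoid), E2 (10 nM estradiol) and Dex+E2 (both at those doses), all for 6 h in Claycomb medium. The series states independent experiments, and the arrays of a label carry the numbers 1 to 4. The labels do not say that a number marks an experiment. HL-1 is 1 immortalised line, so the arrays are no sample of animals. Each of 4 slides carried 4 arrays: Vehicle 1 and 2 with Dex 1 and 2, Vehicle 3 and 4 with E2 1 and 2, Dex 3 and 4 with Dex+E2 1 and 2, and E2 3 and 4 with Dex+E2 3 and 4. The level used throughout is log2 of the background-subtracted signal minus log2 of the 75th percentile of the array, a percentile that lay between 402 and 557 intensity units. Precision is limited by the number of arrays, 4 a label. Of 12 markers of atrial cardiomyocytes, 11 were well above background on all 16 arrays. So were 4 of 4 smooth muscle markers, 5 of 7 fibroblast markers, 1 of 5 endothelial markers and 1 of 5 macrophage markers. Pecam1 and Cdh5 (endothelium), Ptprc, Adgre1 and Itgam (macrophages) and Lum (fibroblast) were on none. The summed smooth muscle markers lay between 8.59 and 8.87, and the summed atrial markers between 9.32 and 9.70.

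The labels and a glucocorticoid-induced gene disagreed on 4 arrays, which bears on each direction below. Per1, a clock gene that glucocorticoids are known to induce, stood at -0.96, -0.75, -1.11 and 1.75 on Vehicle 1 to 4, 1.91, 1.81, -1.15 and 1.99 on Dex 1 to 4, -0.86, -0.999, -1.29 and 1.95 on E2 1 to 4 and 1.86, 1.82, -1.11 and 1.95 on Dex+E2 1 to 4. It was thus high on 8 arrays and low on 8, and the arrays labelled Vehicle 4, Dex 3, E2 4 and Dex+E2 3 went against their labels. The summed level of 6 glucocorticoid targets lay between 3.98 and 4.18 on the arrays high in Per1 and between 2.69 and 2.93 on the others. Per1 is 1 of the 6, and without it the sum of the other 5 lay between 3.62 and 3.84 and between 2.57 and 2.85. For this reason a difference is described as one between arrays labelled Dex and Vehicle, and no direction is known to be that of a hormone.

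Promoters of the members held the elements of both branches, which is why they are shown before the values. Sequences are from RefSeq (build GRCm38.p6), which had an entry for 32 of the members, in windows from 250 bases before to 50 after the annotated start. The ER stress response element was searched as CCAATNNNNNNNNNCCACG, a shorter second form as ATTGGNCCACG, the C/EBP-ATF element as TGATGNAA and the glucocorticoid response element as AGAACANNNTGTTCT, each on both strands. The first was found in 8 of 32 members and in 0.137% of 27025 genes, and 7 of the 8 were among the 12 ER chaperones and folding factors with an entry. The shorter form was found in Dnajb11 and Herpud1 and in 0.0444% of genes. The C/EBP-ATF element was found in 4 of 11 Atf4 targets (Asns, Chac1, Slc7a11 and Trib3), in Atf3 and in Herpud1, against 4.51% of genes. It was found in 0 of 12 chaperones. The glucocorticoid element was found in 0 of 32 members and 0.0111% of genes. Atf6, Manf, Slc7a5 and Hyou1 had no entry, so their promoters were not searched for any of these elements. A match describes the letters in the window and is no measure of binding.

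The 250 bases before the start are shown for a pair of central chaperones, for the degradation factor with both kinds of element and for 2 Atf4 targets, with each matching element in capitals.
Hspa5 (chr2:34771840-34772089, plus strand): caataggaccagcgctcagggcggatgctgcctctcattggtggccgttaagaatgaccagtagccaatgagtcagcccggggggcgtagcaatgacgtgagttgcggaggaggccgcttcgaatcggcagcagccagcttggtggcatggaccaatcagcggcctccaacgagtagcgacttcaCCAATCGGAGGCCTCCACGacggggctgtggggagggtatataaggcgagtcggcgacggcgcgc
Hsp90b1 (chr10:86705445-86705694, minus strand): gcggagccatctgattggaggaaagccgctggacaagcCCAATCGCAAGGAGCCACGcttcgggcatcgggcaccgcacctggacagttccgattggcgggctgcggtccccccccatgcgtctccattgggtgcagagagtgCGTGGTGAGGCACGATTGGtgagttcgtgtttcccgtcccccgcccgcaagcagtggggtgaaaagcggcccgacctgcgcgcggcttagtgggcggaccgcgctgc
Herpud1 (chr8:94386179-94386428, plus strand): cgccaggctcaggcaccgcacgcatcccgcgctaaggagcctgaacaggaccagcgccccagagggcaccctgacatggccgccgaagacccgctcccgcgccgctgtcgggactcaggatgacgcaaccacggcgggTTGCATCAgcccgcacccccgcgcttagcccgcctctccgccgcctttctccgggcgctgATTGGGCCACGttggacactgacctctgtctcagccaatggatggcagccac
Asns (chr6:7693210-7693459, minus strand): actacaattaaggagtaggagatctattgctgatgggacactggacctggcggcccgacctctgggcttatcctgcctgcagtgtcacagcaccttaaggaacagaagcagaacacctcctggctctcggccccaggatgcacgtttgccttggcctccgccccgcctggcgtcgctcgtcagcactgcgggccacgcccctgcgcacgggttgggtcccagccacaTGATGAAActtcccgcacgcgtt
Chac1 (chr2:119350992-119351241, plus strand): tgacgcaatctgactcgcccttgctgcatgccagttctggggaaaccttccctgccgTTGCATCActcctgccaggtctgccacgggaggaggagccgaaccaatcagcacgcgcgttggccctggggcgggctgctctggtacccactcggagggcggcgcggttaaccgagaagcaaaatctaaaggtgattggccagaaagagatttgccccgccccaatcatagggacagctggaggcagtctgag

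Hspa5 held 1 element that ended 46 bases before the start, and Hsp90b1 held 2, which faced opposite ways. Herpud1 held the shorter ER stress element on the plus strand and a C/EBP-ATF element on the minus strand. Stretches of 60 bases around the element are shown for the other members with an ER stress element and for Trib3, whose C/EBP-ATF element lies after the annotated start, as the element of Dnajb11 does.
Calr (chr8:84847055-84847114, minus strand): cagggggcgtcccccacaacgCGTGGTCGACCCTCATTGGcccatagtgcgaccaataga
Canx (chr11:50325780-50325839, minus strand): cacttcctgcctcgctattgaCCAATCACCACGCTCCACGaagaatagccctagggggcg
Pdia6 (chr12:17266470-17266529, plus strand): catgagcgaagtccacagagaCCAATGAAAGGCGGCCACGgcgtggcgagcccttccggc
Dnajc3 (chr14:118937806-118937865, plus strand): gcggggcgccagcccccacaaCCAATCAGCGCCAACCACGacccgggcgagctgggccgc
Creld2 (chr15:88819499-88819558, plus strand): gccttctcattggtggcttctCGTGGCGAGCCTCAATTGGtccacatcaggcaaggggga
Syvn1 (chr19:6046511-6046570, plus strand): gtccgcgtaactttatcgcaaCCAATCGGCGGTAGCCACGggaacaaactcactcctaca
Dnajb11 (chr16:22857815-22857874, plus strand): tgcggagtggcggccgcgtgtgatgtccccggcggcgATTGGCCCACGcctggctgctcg
Trib3 (chr2:152344031-152344090, minus strand): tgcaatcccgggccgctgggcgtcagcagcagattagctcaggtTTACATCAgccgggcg

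**Figure D1:**
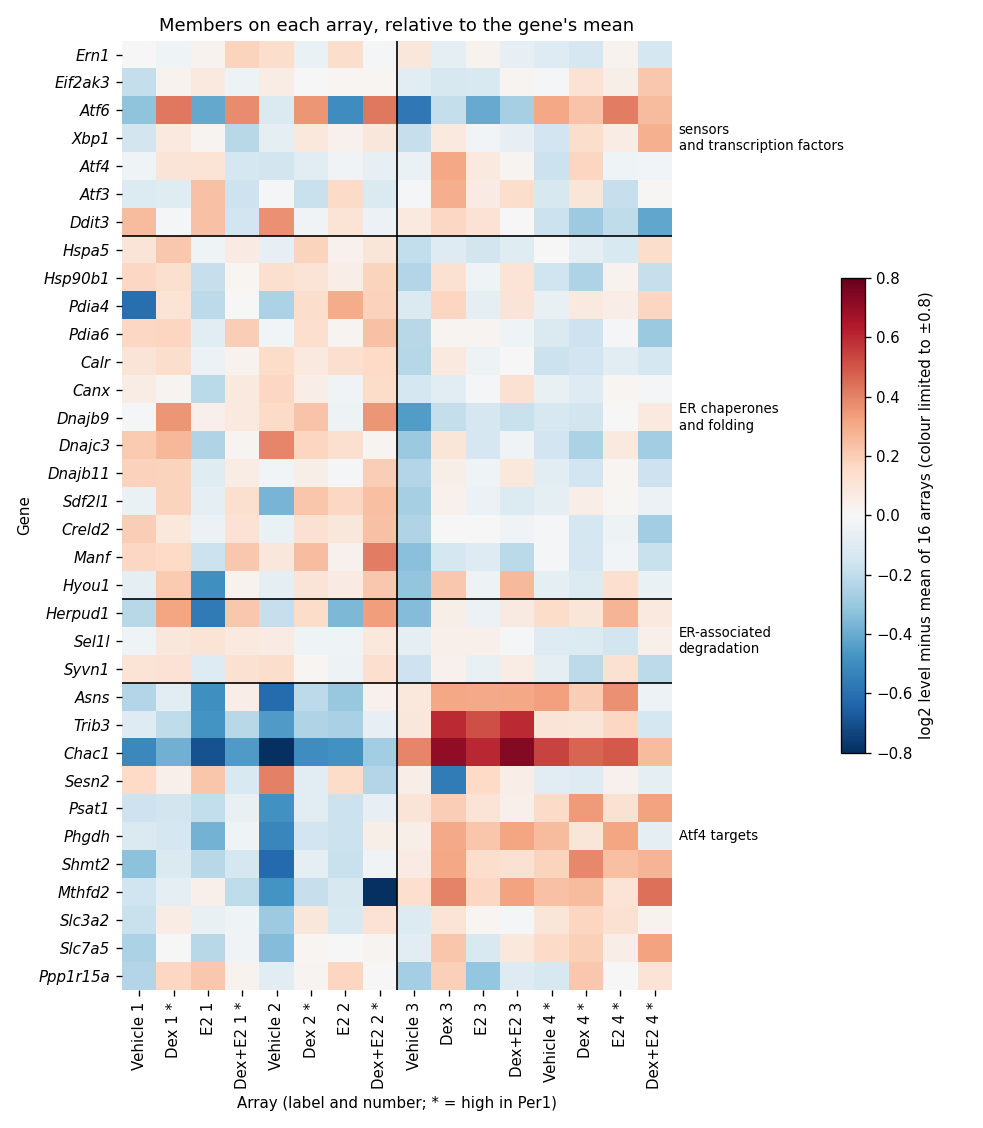
Levels of the 34 measured members on the 16 arrays as log2 differences from the gene's mean, with columns sorted by array number and a star on arrays high in Per1. Atf6 follows the stars, Chac1 and several other Atf4 targets are above their mean on numbers 3 and 4, and each chaperone spans at most 0.89 from its lowest to its highest array.

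Between the labels, no member passed the test. The 6 comparisons set each treatment label against Vehicle, the combination against either hormone alone, and tested the interaction. In each of them limma called 0 of the 34 members at an adjusted p under 0.05, and 0 of all 17771 genes tested (0.0%). At an unadjusted p under 0.05 it counted 8 of the 34 members in Dex against Vehicle, 2 in E2 against Vehicle, 4 in Dex+E2 against Vehicle, 1 in Dex+E2 against Dex, 1 in Dex+E2 against E2 and 2 in the interaction. Over all 17771 genes, in the same order, 370 were higher and 1562 lower, then 397 and 285, 363 and 626, 474 and 95, 248 and 466, and for the interaction 425 and 236. The member counts are not split by direction. In Dex against Vehicle they include Atf4, Xbp1, Sdf2l1, Pdia4, Ppp1r15a and Slc3a2, all higher. The directions of the others counted are not given here. Comparisons against Vehicle share the same 4 Vehicle arrays, so their values are not independent of each other.

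The signs of the members leaned one way in Dex against Vehicle. The difference was positive for 12 of 13 chaperones (median 0.08) and for 10 of 11 Atf4 targets (median 0.17), while 43.3% of all genes were positive (median -0.03). The 20 aminoacyl-tRNA synthetases, many of which are known Atf4 targets too, were positive in 20 of 20 (median 0.17), and 20 of 26 further amino acid response genes were positive. Further ER folding and translocation genes were positive in 24 of 33, further degradation genes in 12 of 18 and further genes of unfolded protein response signalling in 8 of 16. With slide as a block, chaperones were positive in 6 of 13 (median -0.01) and Atf4 targets in 10 of 11. The members also leaned that way in the other comparisons against the same Vehicle arrays: 29 of 34 were positive in Dex against Vehicle (median 0.13), 29 in Dex+E2 against Vehicle (median 0.10) and 25 in E2 against Vehicle (median 0.06). Under normexp background correction they were 26 (median 0.11), 8 (median -0.16) and 5 (median -0.47). Among the Atf4 targets, Vehicle 2 was the lowest array for Asns, Chac1, Psat1, Phgdh, Shmt2, Slc3a2 and Slc7a5. It thus adds to their positive differences against Vehicle. The remaining Atf4 targets were lowest on other arrays. Without Vehicle 2, 28 of 34 members were positive in Dex against Vehicle (median 0.10). The lean of the Atf4 targets alone was not computed without that array. None of these members or genes passed the test.

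Among the sensors and transcription factors, Atf4 and Xbp1 had the smallest p in Dex against Vehicle. Levels of Atf4, in the order of the array numbers, were 2.17, 2.06, 2.15 and 2.03 on the arrays labelled Vehicle, 2.31, 2.12, 2.51 and 2.38 on those labelled Dex, 2.31, 2.18, 2.29 and 2.17 on those labelled E2 and 2.06, 2.14, 2.23 and 2.18 on those labelled Dex+E2. The Dex range reached above the Vehicle range but overlapped it, and the difference was 0.23 ± 0.08 (SE, n = 4 and 4, limma adjusted p = 0.451). It was 0.14 ± 0.08 without the 4 arrays whose Per1 went against the label, 0.10 ± 0.10 within slide 1, which held Vehicle 1 and 2 with Dex 1 and 2, and 0.13 ± 0.22 with normexp. Xbp1, the factor that Ern1 activates by splicing, had 1.37, 1.45, 1.34 and 1.37 on the arrays labelled Vehicle, 1.60, 1.61, 1.60 and 1.66 on those labelled Dex, 1.54, 1.56, 1.50 and 1.58 on those labelled E2 and 1.30, 1.61, 1.46 and 1.81 on those labelled Dex+E2. Here the 4 arrays labelled Dex lay above the 4 labelled Vehicle, by 0.23 ± 0.08 (adjusted p = 0.451). Spliced and unspliced Xbp1 were not told apart by the probe's name.

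Pdia4, a protein disulfide isomerase, and Sdf2l1, a partner of the chaperone Hspa5, led the chaperones in that comparison. Pdia4 stood at 0.67, 1.02, 1.16 and 1.22 on the arrays labelled Vehicle, 1.38, 1.42, 1.45 and 1.35 on those labelled Dex, 1.07, 1.57, 1.20 and 1.33 on those labelled E2 and 1.28, 1.46, 1.38 and 1.45 on those labelled Dex+E2. Vehicle 1 was its lowest array and all Dex arrays exceeded all Vehicle arrays, with a difference of 0.38 ± 0.11 (adjusted p = 0.451). Sdf2l1 stood at 2.85, 2.53, 2.63 and 2.83 on the arrays labelled Vehicle, 3.08, 3.12, 2.94 and 2.95 on those labelled Dex, 2.82, 3.06, 2.85 and 2.91 on those labelled E2 and 3.02, 3.14, 2.79 and 2.85 on those labelled Dex+E2. Its Dex arrays also lay above its Vehicle arrays, by 0.31 ± 0.09 (adjusted p = 0.451). Both had positive differences for E2 against Vehicle as well, 0.27 ± 0.11 for Pdia4 and 0.20 ± 0.09 for Sdf2l1.

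Among the Atf4 targets, Ppp1r15a and Slc3a2 had the smallest p in Dex against Vehicle. Ppp1r15a, the phosphatase subunit that reverses eIF2 alpha phosphorylation, had levels of -0.50, -0.34, -0.53 and -0.38 on the arrays labelled Vehicle, -0.09, -0.24, -0.07 and -0.04 on those labelled Dex, -0.04, -0.09, -0.57 and -0.25 on those labelled E2 and -0.23, -0.25, -0.36 and -0.15 on those labelled Dex+E2. Every Dex array exceeded every Vehicle array, and E2 1 and 2 were as high as the Dex arrays while E2 3 was the lowest array of all. The difference was 0.33 ± 0.10 (adjusted p = 0.451). Slc3a2, the heavy chain shared by several amino acid transporters, had 4.79, 4.68, 4.86 and 5.07 on the arrays labelled Vehicle, 5.03, 5.07, 5.08 and 5.15 on those labelled Dex, 4.92, 4.85, 4.99 and 5.09 on those labelled E2 and 4.94, 5.09, 4.96 and 5.003 on those labelled Dex+E2. Its Dex and Vehicle ranges overlapped through Vehicle 4, and the difference was 0.23 ± 0.08 (adjusted p = 0.451). With the mean of the gene's probes it was 0.10 ± 0.11. Sesn2, a stress-induced regulator of mTORC1, was the member with the most negative difference, -0.31 ± 0.12 (adjusted p = 0.451). Without Dex 3, at -0.17 its lowest Dex array, it was -0.18 ± 0.10, and Ddit3 was then more negative at -0.24.

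**Figure D2:**
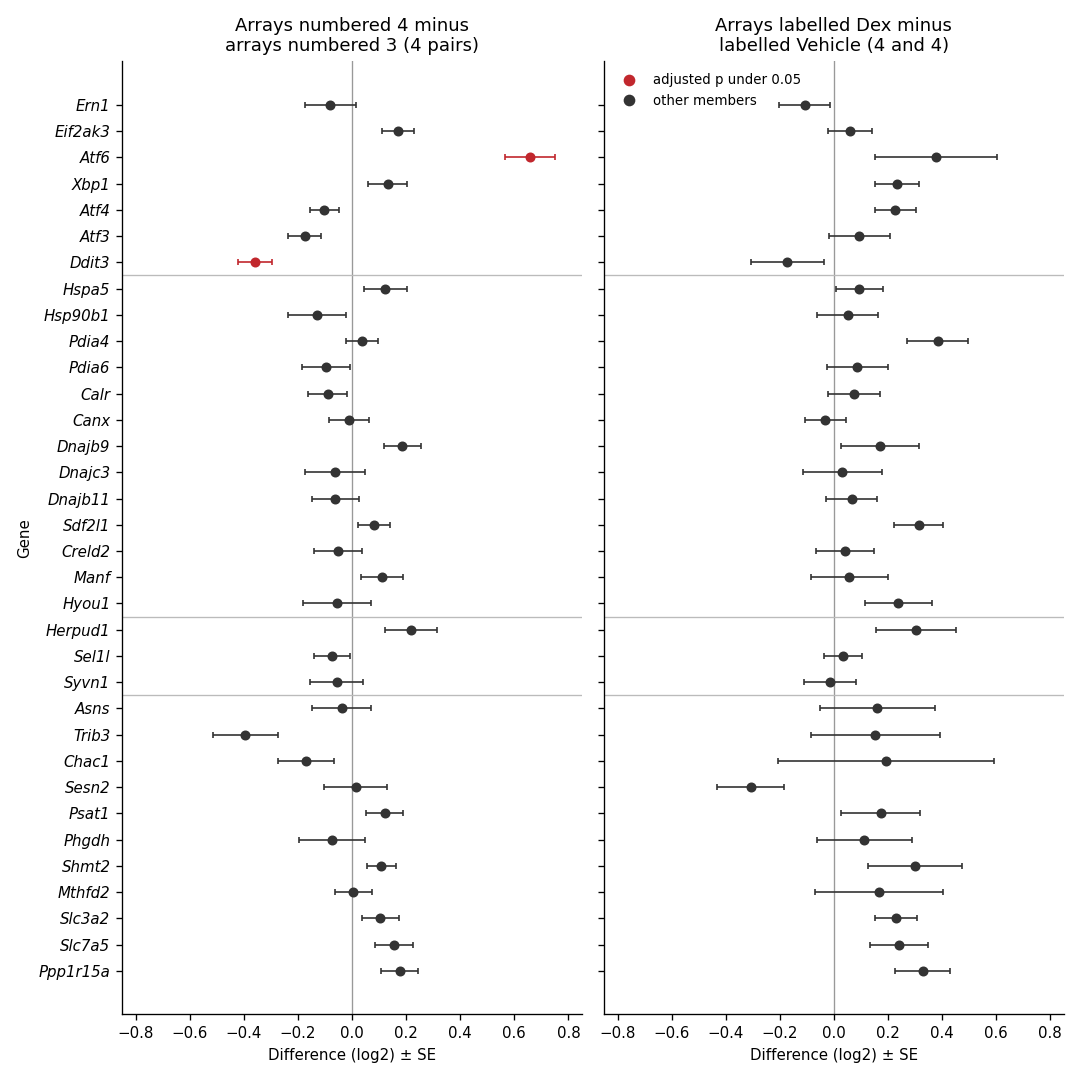
Difference (log2) with its SE for each of the 34 measured members, on the left between arrays numbered 4 and 3 (4 pairs) and on the right between arrays labelled Dex and Vehicle. Red marks the 2 members with an adjusted p under 0.05, Atf6 at 0.66 and Ddit3 at -0.36, both on the left.

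A test was also made within the labels, between arrays numbered 4 and 3, which differed in Per1 in all 4 labels and shared a slide in each. This comparison was chosen with earlier results known, because Per1 had been reported to differ between these arrays. It is therefore not independent of the split by Per1 described below. Of 17771 genes, 552 (3.11%) passed limma's test, 285 of them higher on number 4. Without the pair labelled Dex, E2 or Dex+E2, the genes called were 154, 149 and 190. Members passed in 2 of 34 cases, a share of the same order as the background: Atf6 was higher and Ddit3 was lower. Between arrays numbered 2 and 1, which did not differ in Per1, 0 members and 0 genes (0.0%) passed in limma's test, with 71 genes higher and 128 lower at an unadjusted p under 0.05. If the numbers mark experiments, each such test sets 1 experiment against 1 and its p measures the spread over the 4 labels. Number 4 also lay 1 position after number 3 on its slide, as number 2 did after number 1.

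Atf6, the sensor that is cut to release a transcription factor, had the levels 1.51, 1.71, 1.26 and 2.15 on the arrays labelled Vehicle, 2.26, 2.19, 1.64 and 2.06 on those labelled Dex, 1.42, 1.33, 1.43 and 2.24 on those labelled E2 and 2.21, 2.26, 1.57 and 2.09 on those labelled Dex+E2. The 8 arrays high in Per1 held its 8 highest levels, 2.06 to 2.26, and the other 8 lay between 1.26 and 1.71. Number 4 exceeded number 3 by 0.88, 0.42, 0.81 and 0.52 in the labels Vehicle, Dex, E2 and Dex+E2, a mean difference of 0.66 ± 0.09 (SE, 4 pairs, limma adjusted p = 0.0205). A second probe of the gene gave 0.59, higher in 4 of 4 pairs. The call was lost without the pair labelled E2 (0.61, adjusted p = 0.112) or Dex+E2 (0.70, adjusted p = 0.073), with no filter on dim probes and with no trend in the variance prior.

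By label, Atf6 differed by 0.38 ± 0.23 in Dex against Vehicle (adjusted p = 0.544), by 0.37 ± 0.23 in Dex+E2 against Vehicle and by -0.05 ± 0.23 in E2 against Vehicle. Leaving out the 4 arrays whose Per1 went against the label changed this. It gave Atf6 a difference of 0.67 ± 0.11 in Dex against Vehicle (adjusted p = 0.0062), 0.69 ± 0.11 in Dex+E2 against Vehicle (adjusted p = 0.0053) and 0.79 ± 0.11 in Dex+E2 against E2 (adjusted p = 0.0022). Atf6 was the 1 member called in each of the 3, where 2.43%, 2.58% and 1.92% of all genes were called. The other comparisons called 0 members and 0.0% of genes in this setting. Those arrays were left out for their level of Per1, so these values restate the split by Per1. Within the slide that held Vehicle 1 and 2 with Dex 1 and 2, where no array went against its label, Atf6 differed by 0.61 ± 0.10 (adjusted p = 0.125). There 0 members and 0.253% of genes were called.

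Ddit3, the pro-apoptotic transcription factor also known as CHOP, went the other way. Its levels were 0.47, 0.58, 0.29 and 0.04 on the arrays labelled Vehicle, 0.21, 0.18, 0.38 and -0.08 on those labelled Dex, 0.45, 0.32, 0.33 and 0.01 on those labelled E2 and 0.06, 0.17, 0.21 and -0.20 on those labelled Dex+E2. Number 4 was lower than number 3 in all 4 labels, with a mean difference of -0.36 ± 0.06 (adjusted p = 0.0382). Arrays high in Per1 lay between -0.20 and 0.21 and the others between 0.21 and 0.58, with no overlap and a gap of 0.0064. Under quantile scaling and in the deposited table the ranges overlapped. The adjusted p was 0.065 with normexp (difference -0.23), 0.0731 with no filter on dim probes (-0.36) and 0.0891 with no trend in the variance prior (-0.36). Without any 1 of the pairs labelled Dex, E2 or Dex+E2 it was 0.233, 0.148 or 0.165, with differences of -0.33, -0.37 and -0.34.

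Herpud1, a membrane protein that recruits the degradation machinery, was the third member without overlap. Its levels were 3.44, 3.47, 3.31 and 3.80 on the arrays labelled Vehicle, 3.98, 3.81, 3.70 and 3.76 on those labelled Dex, 3.09, 3.30, 3.61 and 3.93 on those labelled E2 and 3.87, 3.99, 3.73 and 3.74 on those labelled Dex+E2. Arrays high in Per1 held 3.74 to 3.99 and the others 3.09 to 3.73, with a gap of 0.012. Numbers 4 exceeded numbers 3 by 0.22 ± 0.10 (adjusted p = 0.343), and by 0.13 ± 0.09 without the pair labelled Vehicle. So 3 of 34 members did not overlap between the 8 arrays high and the 8 low in Per1, 2 of them higher, where 2.01% of genes with a level on all arrays lay above and 2.05% below. Of the wider amino acid response list, Cebpb and Cth also lay above without overlap, and of the wider ER folding list Ssr3 did. The one measured endothelial marker, Kdr, moved with Per1 too, as did 2 of 11 atrial markers. Between numbers 4 and 3, Sln, a regulator of the calcium pump, was 0.90 ± 0.07 higher (adjusted p = 0.0029) and Gja5, a gap junction protein, was lower, with a log2 difference of -1.19 ± 0.13 (adjusted p = 0.00813). The summed level of the atrial list overlapped, at 9.43 to 9.68 on arrays high in Per1 and 9.32 to 9.70 on the others. That of the endothelial list was 0.83 to 1.20 on arrays high in Per1 and 0.07 to 0.69 on the others. Kdr alone stood at 0.81 to 1.16 and at 0.05 to 0.67, so the sum of that list largely restates Kdr. The part of these markers in the result was not tested.

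**Figure D3:**
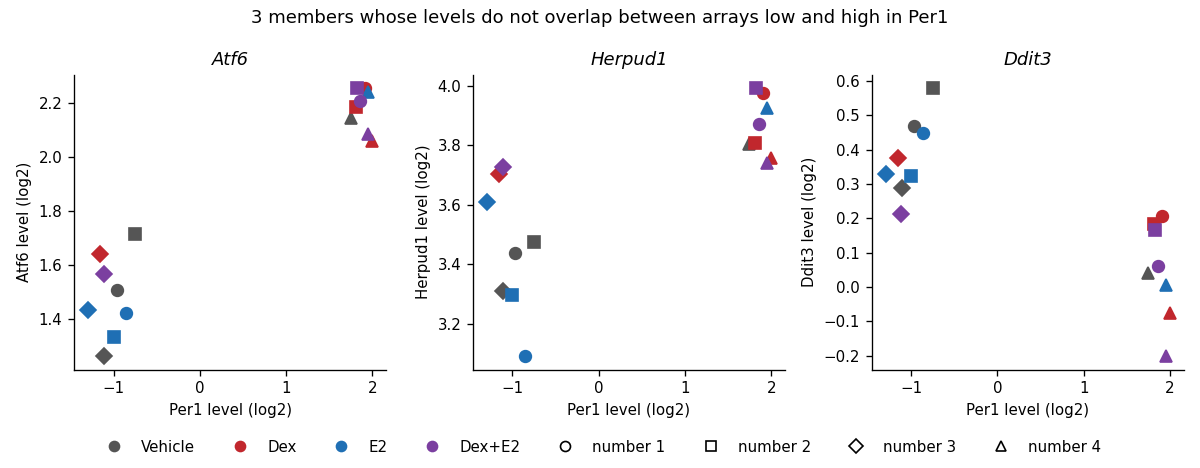
Level of Atf6, Herpud1 and Ddit3 against the level of Per1 (both log2) on the 16 arrays, with colour for the label and shape for the array number. In each panel the 8 arrays low in Per1 and the 8 high in Per1 occupy separate ranges, 1.26 to 1.71 and 2.06 to 2.26 for Atf6.

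The other sensors and factors varied little. Ern1 lay between -3.36 and -3.04, Eif2ak3 between -0.76 and -0.36, Atf3 between -1.19 and -0.72. Number 4 minus number 3 was 0.17 ± 0.06 for Eif2ak3 (adjusted p = 0.241), -0.17 ± 0.06 for Atf3 (adjusted p = 0.241) and -0.08 ± 0.09 for Ern1 (adjusted p = 0.716). Xbp1 and Atf4 gave 0.13 ± 0.07 and -0.10 ± 0.05, with adjusted p = 0.442 and 0.412.

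No ER chaperone passed the test between numbers 4 and 3, where 5 of 13 were positive against 38.0% of all genes. With normexp 13 of 13 were positive (median 0.06), and 0 passed. Dnajb9, a co-chaperone induced by Xbp1, had the smallest p, with levels of 0.67, 0.84, 0.24 and 0.55 on the arrays labelled Vehicle, 1.04, 0.91, 0.50 and 0.54 on those labelled Dex, 0.72, 0.64, 0.55 and 0.68 on those labelled E2 and 0.76, 1.04, 0.50 and 0.76 on those labelled Dex+E2. It was higher on number 4 in 4 of 4 pairs, by 0.19 ± 0.07 (adjusted p = 0.249), and its 2 other probes gave 0.28 and 0.20. Hspa5, the chaperone that holds the sensors inactive and is the classic marker of ER stress, had 5.98, 5.82, 5.68 and 5.88 on the arrays labelled Vehicle, 6.09, 6.06, 5.78 and 5.81 on those labelled Dex, 5.85, 5.91, 5.73 and 5.76 on those labelled E2 and 5.94, 5.98, 5.78 and 6.02 on those labelled Dex+E2. Its range over all 16 arrays was 5.68 to 6.09, the arrays high and low in Per1 overlapped, and number 4 minus number 3 was 0.12 ± 0.08 (adjusted p = 0.512).

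The remaining chaperones had ranges of the same size. Hsp90b1, the ER member of the Hsp90 family, lay between 5.81 and 6.23. Calr and Canx, the lectin chaperones of glycoproteins, lay between 4.19 and 4.58 and between 5.28 and 5.66. Pdia6, Dnajc3, Dnajb11, Creld2, Manf and Hyou1 each spanned 0.43 to 0.75 from the lowest to the highest array. Of the degradation factors, Sel1l and Syvn1, which form the core of a ubiquitin ligase, spanned 0.25 and 0.35. Sel1l stood at -0.44, -0.34, -0.49 and -0.51 on the arrays labelled Vehicle, -0.32, -0.44, -0.36 and -0.51 on those labelled Dex, -0.29, -0.44, -0.36 and -0.55 on those labelled E2 and -0.33, -0.32, -0.42 and -0.36 on those labelled Dex+E2. Its label ranges all overlapped, and its difference was 0.03 ± 0.07 in Dex against Vehicle (adjusted p = 0.875) and -0.07 ± 0.07 between numbers 4 and 3 (adjusted p = 0.643).

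Among the Atf4 targets no member passed the test between numbers 4 and 3, where 7 of 11 were positive. Trib3, a pseudokinase induced by Atf4 and Ddit3, had the smallest p, with levels of 1.78, 1.43, 1.98 and 1.99 on the arrays labelled Vehicle, 1.68, 1.64, 2.48 and 1.98 on those labelled Dex, 1.41, 1.63, 2.40 and 2.05 on those labelled E2 and 1.67, 1.82, 2.49 and 1.75 on those labelled Dex+E2. Dex 3, E2 3 and Dex+E2 3 were its 3 highest arrays. The pairs differed by 0.02, -0.50, -0.35 and -0.74 in the labels Vehicle, Dex, E2 and Dex+E2, a mean of -0.39 ± 0.12 (adjusted p = 0.181). Without the Vehicle pair, which was near 0, the value was -0.53 ± 0.09 and passed (adjusted p = 0.0408). Ppp1r15a, given above, was higher on number 4 by 0.18 ± 0.07 (adjusted p = 0.283), or by 0.05 with normexp (adjusted p = 0.669).

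Of the further amino acid response genes, 4 were called higher and 1 lower between numbers 4 and 3, among 26 tested. Of all genes, 3.11% were called in this fit. Cebpb and Cth, given next, also lay apart by Per1 as described above. Cebpb, a partner factor of Atf4, was 1.41 ± 0.07 higher (adjusted p = 0.000523), Cth, of cysteine synthesis, 0.84 ± 0.07 (adjusted p = 0.00292), Ddit4, an inhibitor of mTORC1, 0.73 ± 0.12 (adjusted p = 0.033), and Vldlr, a lipoprotein receptor, was 0.71 lower (log2 difference -0.71 ± 0.11, adjusted p = 0.0266). The other called gene was Stc2, a secreted glycoprotein named here after its value was seen, at 0.48 ± 0.08 (adjusted p = 0.0361). None of 20 synthetases, 33 further ER folding genes, 18 further degradation genes or 16 signalling genes was called. At an unadjusted p under 0.05, limma counted 0, 1, 0 and 2 of them. Of 11 cytosolic heat shock genes, Hspb1 was called, 0.56 ± 0.07 higher (adjusted p = 0.0128).

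The widest differences among the Atf4 targets followed the array number and neither the label nor Per1. This split was seen in the values, so it is described without a test. Chac1, which encodes an enzyme that degrades glutathione, stood on arrays numbered 1 and 2 at 0.50 and 0.13 under Vehicle, 0.63 and 0.52 under Dex, 0.32 and 0.53 under E2 and 0.56 and 0.73 under Dex+E2. On arrays numbered 3 and 4 it stood at 1.40 and 1.56 under Vehicle, 1.72 and 1.48 under Dex, 1.62 and 1.51 under E2 and 1.75 and 1.27 under Dex+E2. The first 8 thus lay between 0.13 and 0.73 and the other 8 between 1.27 and 1.75, in every label and on arrays high and low in Per1 alike.

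Psat1, of serine synthesis, separated in the same way. Its levels were 3.35 and 3.04 under Vehicle, 3.38 and 3.43 under Dex, 3.32 and 3.35 under E2 and 3.46 and 3.46 under Dex+E2 on numbers 1 and 2, and 3.62 and 3.68 under Vehicle, 3.72 and 3.86 under Dex, 3.63 and 3.64 under E2 and 3.56 and 3.84 under Dex+E2 on numbers 3 and 4. The gap was smaller than for Chac1 but the 2 sets of 8 arrays did not overlap. Shmt2, which moves a carbon unit from serine into mitochondrial folate, had 2.44 and 2.15 under Vehicle, 2.65 and 2.69 under Dex, 2.54 and 2.59 under E2 and 2.63 and 2.74 under Dex+E2 on the first, and 2.84 and 2.95 under Vehicle, 3.08 and 3.15 under Dex, 2.91 and 3.01 under E2 and 2.89 and 3.04 under Dex+E2 on the second. Mthfd2, the next enzyme of that folate pathway, had 2.57 and 2.25 under Vehicle, 2.65 and 2.55 under Dex, 2.77 and 2.60 under E2 and 2.53 and 1.86 under Dex+E2, and 2.86 and 2.96 under Vehicle, 3.13 and 2.98 under Dex, 2.90 and 2.84 under E2 and 3.05 and 3.17 under Dex+E2 on the second. Its lowest array was Dex+E2 2.

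Asns, the enzyme that makes asparagine and a standard readout of Atf4, showed a partial separation. Its levels were 4.81 and 4.43 under Vehicle, 4.95 and 4.83 under Dex, 4.55 and 4.74 under E2 and 5.09 and 5.07 under Dex+E2 on numbers 1 and 2, and 5.13 and 5.37 under Vehicle, 5.35 and 5.24 under Dex, 5.34 and 5.41 under E2 and 5.35 and 5.0 under Dex+E2 on numbers 3 and 4. The mean of numbers 3 and 4 was above that of 1 and 2 in all 4 labels, but Dex+E2 4 lay below Dex+E2 1 and 2. Phgdh, the first enzyme of serine synthesis, Trib3 and Slc7a5, the light chain of a transporter of large amino acids, were also above in all 4 labels. Under quantile scaling, and in the authors' deposited table, the members without overlap were Asns, Chac1, Phgdh, Psat1, Shmt2 and Trib3, so Mthfd2 depended on the scaling. Chac1, Psat1 and Shmt2 did not overlap in the main scaling, under quantile scaling or in the deposited table. All columns of that table hold the same sorted values, as quantile scaling gives, so it is no separate check. Under normexp no member was apart by array number.

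As a group, 4 of 11 Atf4 targets lay higher on all arrays numbered 3 and 4, where 0.576% of genes did and 1.03% lay lower on all of them. The difference of numbers 3 and 4 minus 1 and 2 was positive for 9 of 11 Atf4 targets (median 0.37) against 44.8% of all genes (median -0.02). By label, 9 (Vehicle), 10 (Dex), 9 (E2) and 9 (Dex+E2) of the 11 were positive, with medians of 0.46, 0.39, 0.30 and 0.20. Under normexp the counts were 9, 10, 10 and 3 in the same order, with medians of 0.185, 0.68, 0.61 and -0.50. Sesn2 was the member with a negative difference in 3 labels and Ppp1r15a in 3. Atf4 itself, whose activity is set mainly in translation, did not separate: its levels were 2.06 to 2.31 on numbers 1 and 2 and 2.03 to 2.51 on numbers 3 and 4.

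The chaperones did not share that pattern. Numbers 3 and 4 minus 1 and 2 was positive for 2 of 13 chaperones (median -0.15), and 0 of 13 separated without overlap. With the mean of a gene's probes, 1 chaperone, Dnajc3, did separate. By label the count was 2 (Vehicle), 1 (Dex), 7 (E2) and 1 (Dex+E2). Over all labels under quantile scaling, 3 of 13 were positive (median -0.07) and Atf4 targets were positive in 9 of 11 (median 0.47). Under normexp these were 1 of 13 (median -0.28) and 9 of 11 (median 0.27), so both medians kept their sign over all labels. By label, the normexp count for chaperones was 1 (Vehicle), 10 (Dex), 13 (E2) and 0 (Dex+E2), with medians of -0.46, 0.07, 0.38 and -0.97. There the medians of chaperones and Atf4 targets had opposite signs in Vehicle only. The difference in direction between these member groups was not tested, since their choice was made with results of these data known.

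**Figure D4:**
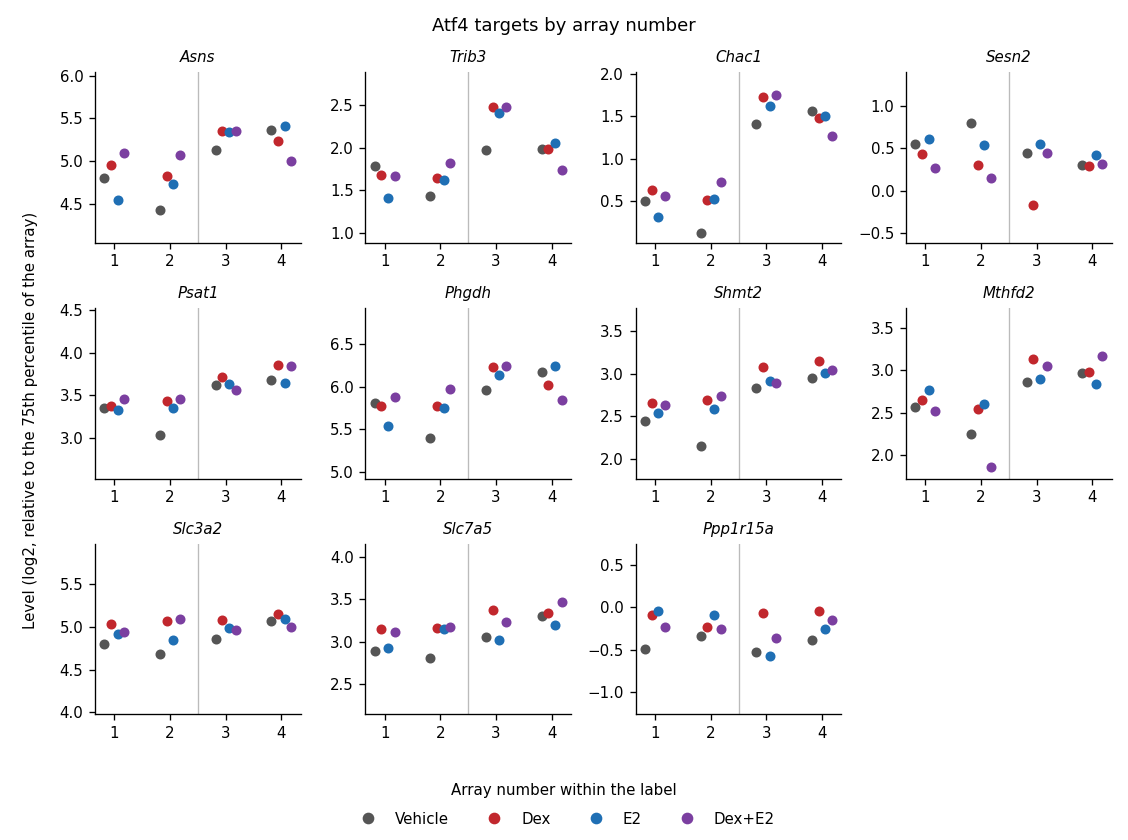
Levels (log2) of the 11 measured Atf4 targets by array number, with 1 point per array coloured by label and axes of equal span. Chac1 lies at 0.13 to 0.73 on numbers 1 and 2 and at 1.27 to 1.75 on numbers 3 and 4, with all 4 labels mixed within each number.

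**Figure D5:**
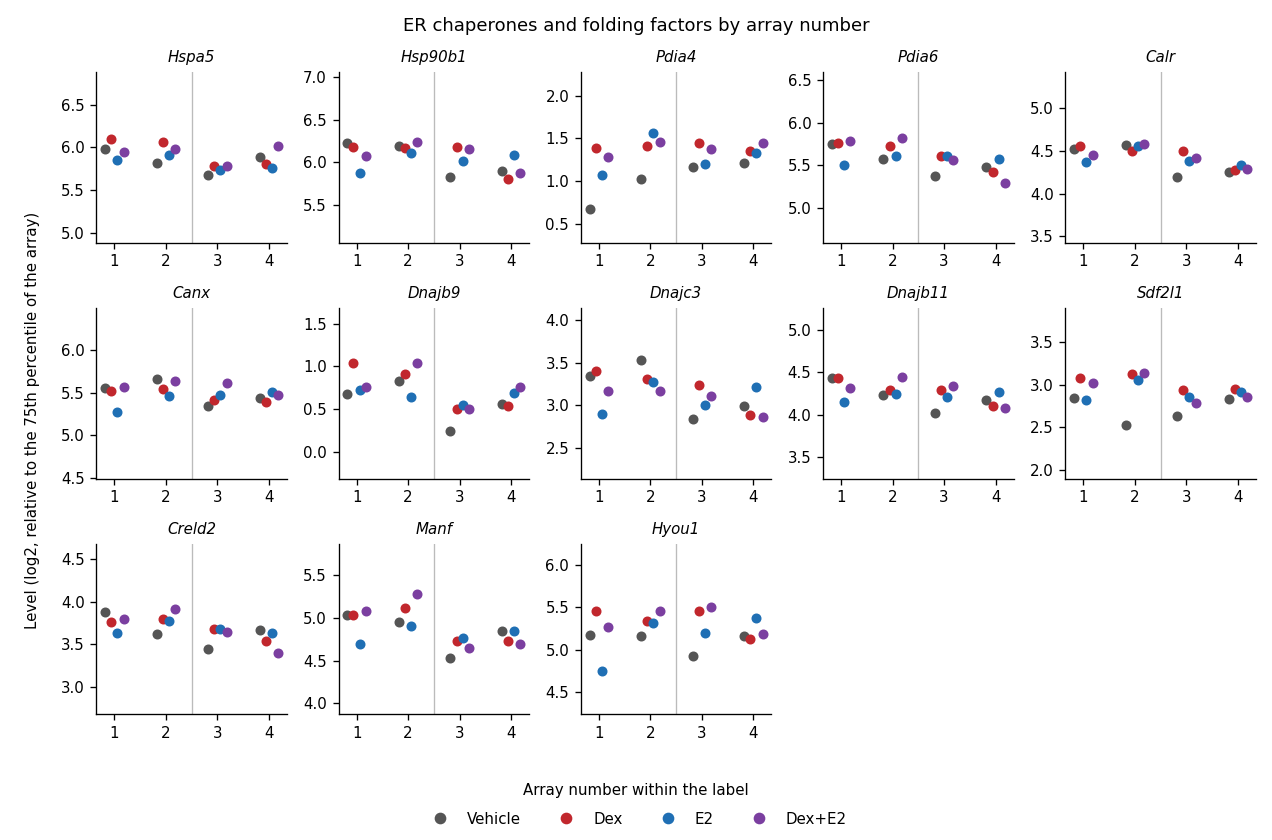
Levels (log2) of the 13 measured ER chaperones and folding factors by array number, drawn as for the Atf4 targets with axes of the same span. No chaperone separates numbers 3 and 4 from 1 and 2, and Hspa5 stays between 5.68 and 6.09.

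A pair of slides held both kinds of number. On the slide with Vehicle 3 and 4 and E2 1 and 2, both Vehicle arrays exceeded both E2 arrays for 7 of 11 Atf4 targets, against 22.1% of all genes. On the slide with Dex 3 and 4 and Dex+E2 1 and 2, both Dex arrays exceeded both Dex+E2 arrays for 9 of 11, against 18.3% of all genes. For Chac1, Psat1, Shmt2 and Mthfd2 this order follows from the split by number given above. The counts reuse the values in which that split was seen and are no separate check. Chac1 was 1.40 and 1.56 against 0.32 and 0.53 on the first, and 1.72 and 1.48 against 0.56 and 0.73 on the second. On these slides number and label cannot be told apart, nor can number and position.

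With slide as a block, the label comparisons of these genes gave other values. For Chac1, E2 minus Vehicle was 0.10 ± 0.40 without the block and -0.95 ± 0.15 with it (adjusted p = 0.19), and Dex+E2 minus Dex was -0.01 ± 0.40 without and -1.06 ± 0.15 with it (adjusted p = 0.139). In E2 against Vehicle, 11 of 11 Atf4 targets were positive without the block and 3 of 11 with it (median -0.28). For the chaperones, 8 of 13 were positive without the block and 13 of 13 with it (median 0.19). Under normexp, with no block, 1 of 11 Atf4 targets (median -0.47) and 0 of 13 chaperones (median -0.59) were positive, while the median of all genes was 0.13. The fitted background was -292 to -747 on the E2 arrays and -9.38 to -278 on the Vehicle arrays. The constants thus differed between the labels compared, and these signs are no separate check. No gene was called with or without the block.

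Other measures moved with the array number as well. The summed level of the 7 fibroblast markers was 5.25 to 5.64 on numbers 1 and 2 and 4.86 to 5.21 on numbers 3 and 4. Of those markers 5 were well above background on all 16 arrays and Lum on none. That of 5 macrophage markers was -3.70 to -3.10 and -3.98 to -3.75, with Ptprc, Adgre1 and Itgam above background on no array. Of the 2 macrophage markers tested, 1 had a higher mean on numbers 3 and 4, while Cd68 lay lower without overlap. The summed atrial markers were 9.58 to 9.70 and 9.32 to 9.66, and 9 of 11 atrial markers had a lower mean on numbers 3 and 4 (median -0.15). The 75th percentile used for scaling was 402 to 499 on numbers 1 and 2 (median 444) and 418 to 557 on numbers 3 and 4 (median 505), where 5 of 8 arrays exceeded all of the first. The part of these measures in the result was not tested. Fewer cells that express a gene and less RNA per cell cannot be told apart in such bulk samples.

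The wider lists showed the same split, and their genes are named here after their values were seen. Of 26 further amino acid response genes, 7 lay higher on all arrays numbered 3 and 4 and 0 lower: Aldh18a1, of proline synthesis, Aldh1l2, of mitochondrial folate, Gpt2, an alanine transaminase, Jdp2 and Nupr1, transcriptional regulators, Psph, which completes serine synthesis, and Slc6a9, a glycine transporter. Cars and Yars did so among 20 synthetases, of which 18 had a positive difference (median 0.16). In the ER lists 0 genes lay higher on all of them. Fkbp2 and Fkbp14, prolyl isomerases of the ER, and Selenok, a selenoprotein of ER-associated degradation, lay lower.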

How the data were processed

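HL-1 cells were profiled on 16 single-colour Agilent arrays. The submitters' processing notes name Agilent Feature Extraction, version 12. The processed signal of a spot is a background-subtracted intensity, per the file headers. The authors also deposited a table of log2 values for the same arrays, made by a method the sources used here do not give. Its columns all hold the same sorted values, as quantile scaling gives. It served as an alternative.

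Control and outlier spots were left out and spots of a probe averaged. The 75th percentile was subtracted on the log2 scale. Probes well above background on all 4 arrays of a label were kept (24453), giving 17771 genes. Label comparisons were fitted over all 16 arrays, and numbers 4 minus 3 over pairs, with limma 3.58.1 (lmFit, eBayes with a trend) in R 4.3.3, two-sided, with Benjamini-Hochberg adjustment over all genes. The fits were tested on simulated data. Genes named with every level were those called and, in each member group, the 2 with the smallest p in Dex against Vehicle and in numbers 4 against 3. Chac1, Psat1, Shmt2, Mthfd2 and Asns were added after their split by array number was seen. Members and lists were chosen with earlier results of these data known. Per array, 58.6% to 65.6% of probes passed the background call, and 0 were saturated.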

Additional observations from a re-analysis of the deposited data

Results flagged for a closer look

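Within each label the 4 arrays of each member were screened for 1 array far from the other 3, which gave 6 cases in 136 sets of 4 arrays. Chance alone marks about 1 in 20 such sets. Atf6 stood at 2.24 on E2 4, where the nearest other E2 array was at 1.43, and this was the only case on an array whose Per1 went against its label. Xbp1 stood at 1.66 on Dex 4 against 1.61 on the nearest Dex array, and Ern1 at -3.08 on E2 2 against -3.19, both small gaps in groups whose other arrays were close together. Hsp90b1 was low on Dex 4, at 5.81 against 6.16. Dnajc3 was low on Dex+E2 4, at 2.86 against 3.11, and Hyou1 low on Vehicle 3, at 4.93 against 5.16.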

How the results depend on the processing

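Of 248 alternative values for the named members, 236 kept their direction and their side of the threshold, 10 lost a call, 1 gained one and 1 turned its sign without a call: Sel1l in Dex against Vehicle, at -0.0024 without the 4 arrays whose Per1 went against the label. Atf6 and Ddit3 between numbers 4 and 3 were the only calls among these named results, and all 10 losses were theirs. The other named results had no call to lose, so the pooled count does not measure how firm the calls are. The gain was that of Trib3 between numbers 4 and 3. Without the 4 arrays whose Per1 went against the label, genes called were 432 in Dex against Vehicle, 458 in Dex+E2 against Vehicle and 341 in Dex+E2 against E2, with 1 member in each. Within slide 1, 45 genes were called in Dex against Vehicle, and with no trend in the variance prior 1 gene in E2 against Vehicle. Between numbers 4 and 3, genes called were 236 with no filter on dim probes, 358 with no trend and 1158 with all 16 arrays in the fit, and 149 to 553 when 1 pair was left out. Members called there were 1 with normexp, 0 with no filter, 0 with no trend and 0 to 3 when 1 pair was left out. Normexp was run on the median signal, as the files give no mean signal; its fitted background ran from -6.95 to -747 units over the arrays, so it added unequal constants. It called 81 genes between numbers 2 and 1 and left 0 members apart by Per1 and 0 by array number. With the mean of a gene's probes, 7 members were apart by array number. These alternatives for members apart were chosen after seeing the data.

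The replicate number as a block called 0 genes in each of the 6 label comparisons. For each gene the label mean was subtracted, and the remaining deviations of same-numbered arrays from different labels were correlated across genes. These correlations ran from -0.155 to 0.463, over 0.1 in 13 of 24 pairs and in 6 of the 6 between arrays numbered 4. The arrays whose Per1 went against the label were included. As not every pair was over 0.1, the numbers were not taken to pair the arrays. By the same measure 9 of 16 arrays correlated best with an array of their own number. The C-terminal retention signal was not searched, as no protein sequences were used here. Single arrays left out one at a time gave 0 calls in each label comparison. The number of arrays limits what can be seen: differences near 0.3 had SE values near 0.1.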
